A study of Homo sapiens with 4 samples.

Results

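The RGS genes encode regulators of G-protein signaling, and 10 of them were compared between control- and QKI-knockdown BEAS2B cells: *RGS4*, *RGS2*, *RGS3*, *RGS10*, *RGS12*, *RGS14*, *RGS16*, *RGS17*, *RGS19* and *RGS20*. The family was selected on the fall of *RGS4* in these same libraries, and the other 9 genes were then taken by family name. The values of *RGS4* are therefore a description, without a test, and the question was whether its fall was shared. The 10 genes are among 16708 genes listed in at least 1 library. Of these 10, 7 had a mean of at least 0.5 RPKM over the 4 libraries and entered the test across 11829 genes, while *RGS2*, *RGS16* and *RGS17* fell below that limit. RPKM is a read count scaled to the length of the gene and the size of the library. The lengths recovered from the authors' values differ from the annotated exons by a factor that varies between genes, from 0.206 for *RGS17* to 2.62 for *RGS14*. This limits any comparison of levels between genes, and the length of *RGS17* rests on few reads. Differences are given on the log2(RPKM + 0.5) scale, which understates the change of mRNAs with low RPKM.

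BEAS2B is a line of human bronchial epithelial cells transformed with a virus. The control group (sh-Ctrl) stably expressed an shRNA against luciferase, and the QKI-knockdown group (sh-QKI) stably expressed a single retroviral shRNA against all isoforms of QKI, an RNA-binding protein that regulates splicing and mRNA stability. Both were grown in the same serum-containing medium, and each was represented by 2 libraries of total RNA with the replicate numbers 1 and 2. The study sequenced on 2 occasions with different read lengths. The labels do not tie a number to a read length or to a separate culture. The p-values therefore rest on no more than a spread between libraries, which may be technical. When the RPKM values were fitted with a term for the replicate number, this was the spread typical of genes of similar mRNA level. The spread of a gene's own libraries then had practically no weight. With 1 shRNA for QKI, an effect of QKI loss and an effect of that shRNA on other mRNAs cannot be told apart.

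RGS proteins end signals from G-protein coupled receptors. A receptor that has bound its ligand loads the G alpha subunit with GTP, which releases it from G beta and G gamma, and an RGS protein binds the active G alpha and speeds up the hydrolysis of GTP. The family falls into subfamilies that differ in the G alpha subunits they act on and in the domains around the RGS domain. *RGS4* belongs to the group of small members that act on the Gi/o and Gq classes, and its protein is kept short-lived by the Arg/N-degron pathway of protein degradation. It is best known from neurons, heart and smooth muscle, and in airway cells RGS proteins limit signaling by contractile and inflammatory receptors.

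The replicate numbers differed more from each other than the groups did. Across tested genes, log2 differences had an SD of 0.812 for one control library against the other and of 0.660 for the knockdown pair. Knockdown against control gave an SD of 0.196 within replicate 1 and of 0.208 within replicate 2. Values are therefore given for every library, and differences within each number. QKI mRNA was at 8.94 and 14.6 RPKM in the control libraries and at 2.52 and 3.85 RPKM in the QKI-knockdown libraries, or 28.2% and 26.4% of control within the replicate numbers. Of the markers of bronchial epithelium, *KRT8* and *KRT18* were between 91.5 and 248 RPKM in every library. *KRT7* differed strongly between the replicate numbers, at 264 and 20.7 RPKM in the control libraries and 233 and 23.8 RPKM in the knockdown libraries. In contrast, *KRT19* reached at most 0.875 RPKM, *EPCAM* at most 0.811 RPKM and *CDH1* at most 0.181 RPKM. Markers of 5 other cell types were also measured. All 3 endothelial markers and all 4 fibroblast markers were at most 0.230 RPKM in every library, with *PECAM1* and *DCN* at 0, while the summed level of 4 smooth muscle and pericyte markers was between 8.66 and 12.5 RPKM and that of 4 neuronal markers between 5.40 and 24.5 RPKM, mostly *PDGFRB* and *TUBB3*. Of the leukocyte markers, *CD3E* was at 0 and *PTPRC* reached at most 0.00509 RPKM, while *CD68* was between 12.2 and 17.3 RPKM.

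*RGS4* mRNA was at 2.06 and 2.20 RPKM in the control libraries 1 and 2, and at 0.986 and 0.799 RPKM in the QKI-knockdown libraries 1 and 2. Both knockdown libraries lay below both control libraries. The level was 47.9% of control within replicate 1 and 36.4% within replicate 2, which is 2.09-fold and 2.75-fold lower. On the log2(RPKM + 0.5) scale the difference was -0.78 and -1.05 within the replicate numbers, and -0.92 for the group means. Ordered by that pooled difference, *RGS4* ranked 7 from the lowest of the 11829 tested genes. The control libraries differed by 0.08 and the knockdown libraries by -0.19 from replicate 1 to replicate 2, so that the replicate numbers were closer to each other than the groups were for this gene. These values rest on 484 and 895 recovered reads in the control libraries and on 238 and 327 in the knockdown libraries. A read may have been counted more than once, so the number of separate reads may be lower. In bulk RNA, fewer cells with *RGS4* mRNA and less of it per cell cannot be told apart.

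*RGS4* lies on the plus strand of chromosome 1 of hg19 (chr1:163038565-163046592). Its canonical mRNA in GENCODE, the annotation lifted to this build, has 5 exons and 2984 nt. QKI binds RNA at ACUAAC or ACUAAU, often with a second short UAAC or UAAU nearby. Both longer motifs were searched on the sense strand of the mRNAs, and matches that shared bases were each counted. The *RGS4* mRNA held 2 matches, both in the 3′ UTR and neither with UAAC or UAAU at a distance of 1 to 20 bases. Among 1208 tested mRNAs within 10% of its length, 41.4% held a match and 14.2% held at least as many. The matches are shown because *RGS4* is the member whose level fell, with the motif in capitals and 10 flanking bases on each side, as read from hg19 (chr1:163045026-163045051 and chr1:163046319-163046344).
RGS4, first match: ggcaaaatgaACTAACtgccatgtag
RGS4, second match: ctgctgtcttACTAATaggtctggaa

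*RGS17* was the other member with matches in its mRNA, and 8 members had 0. The canonical *RGS17* mRNA of 7932 nt on the minus strand of chromosome 6 held 8 matches, all in the 3′ UTR, of which 3 had a UAAC or UAAU at 1 to 20 bases. Of 615 tested mRNAs within 10% of that length, 80.5% held a match and 1.30% held at least as many. The smallest length that gave whole reads for the authors' RPKM of *RGS17* was 1636 nt, from few reads. If this was the length they used, most of this mRNA lay outside it, but a multiple would fit as well. Of the 3 matches with a UAAC or UAAU nearby, 2 are shown for comparison with *RGS4*, which has none of that kind (chr6:153326316-153326341 and chr6:153326284-153326309, with the motif in capitals). The UAAC or UAAU of each lies beyond the 10 flanking bases printed, and whether these 2 neighbouring matches share it was not examined.
RGS17, match to ACUAAU: atcttatcttACTAATtgtcataaga
RGS17, match to ACUAAC: ttaaatttaaACTAACcattttgctt
The 8 mRNAs without a match are between 923 nt (*RGS10*) and 4753 nt (*RGS12*) long. Of tested mRNAs within 10% of the length of each, between 12.7% and 61.5% held a match, and over all 11385 tested genes with such an mRNA the share was 48.1%. A match is a description of the letters and no evidence of binding.

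**Figure D1:**
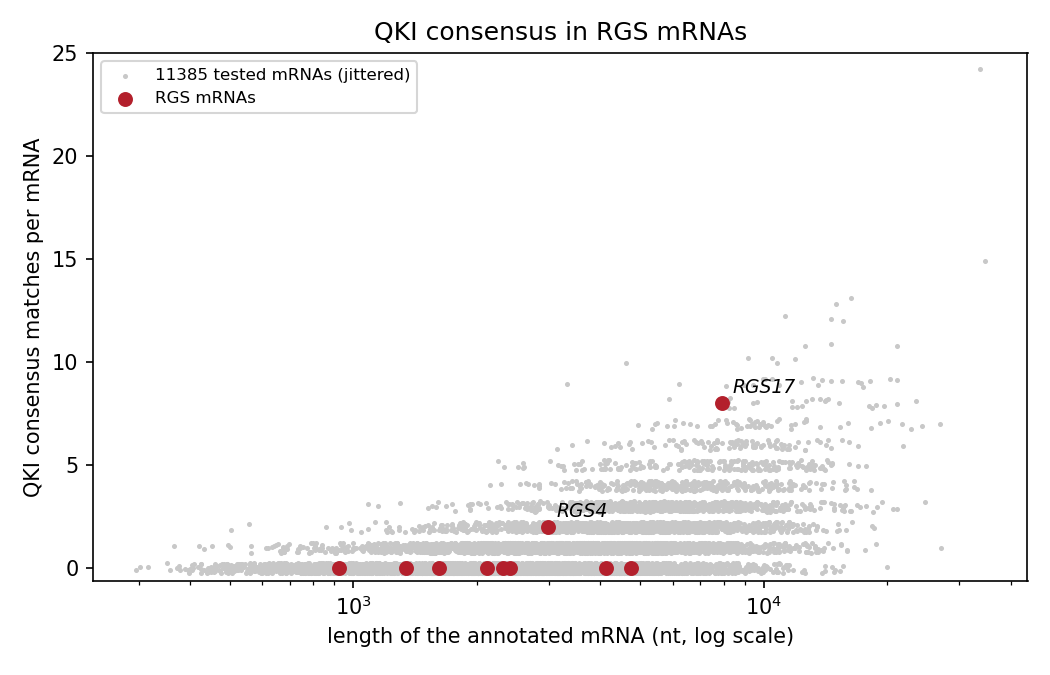
Matches to the QKI consensus (y axis) against the length of the canonical mRNA in nt (x axis, log scale) for 11385 tested mRNAs (grey, jittered vertically) and the 10 RGS mRNAs (red). *RGS4* holds 2 matches and *RGS17* holds 8, and the other 8 RGS mRNAs lie at 0.

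*RGS2* and *RGS16*, small members of the family like *RGS4*, had very low mRNA levels in these cells. For *RGS2*, whose protein acts mainly on Gq, 0 and 3 reads were recovered from control cells and 4 and 2 from knockdown cells, or at most 0.0636 RPKM. For *RGS16*, which acts on Gi and Gq, these were 2 and 0 reads in control cells and 0 and 2 reads after knockdown. With 0 reads, levels of up to 0.0490 RPKM for *RGS2* and 0.0601 RPKM for *RGS16* could have been missed, and for both genes a difference was not detectable at this depth. *RGS3*, a longer member that acts on Gi and Gq, had a control level that overlapped that of *RGS4*, with 2.14 and 1.68 RPKM in the control libraries and 2.45 and 1.85 RPKM in the knockdown libraries. It was higher within both replicate numbers, by 0.16 and 0.11, but the groups overlapped.

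*RGS10*, *RGS12* and *RGS14* form the subfamily that acts on the Gi class, and *RGS12* and *RGS14* carry further domains that bind Ras proteins and inactive G alpha. *RGS10* had the highest RPKM of the members, at 27.0 and 25.8 RPKM in the control libraries and 25.2 and 25.4 RPKM in the knockdown libraries. Its groups did not overlap, but the highest knockdown and the lowest control value were almost the same, and the differences within the replicate numbers were -0.10 and -0.02. *RGS12* was at 3.66 and 1.85 RPKM in control cells and at 3.80 and 2.06 RPKM after knockdown, with differences of 0.05 and 0.12. The libraries numbered 1 were the high ones in both groups. *RGS14* was at 2.86 and 1.37 RPKM in the control libraries and at 1.97 and 1.31 RPKM in the knockdown libraries. It had the second-lowest pooled difference of the tested members, -0.24, which came from replicate 1 (-0.44) far more than from replicate 2 (-0.04).

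*RGS19*, *RGS20* and *RGS17* form the subfamily that acts on Gz and other Gi proteins. *RGS19* had the second-highest RPKM, at 14.2 and 6.10 RPKM in the control libraries and at 12.5 and 8.23 RPKM in the knockdown libraries. Its difference had opposite signs within replicate 1 (-0.17) and replicate 2 (0.41). *RGS20* was at 1.95 and 2.07 RPKM in control cells and at 1.65 and 2.09 RPKM after knockdown, with differences of -0.19 and 0.01. Control levels of *RGS20* and *RGS4* thus overlapped, while after knockdown *RGS4* was the lower in both libraries. *RGS17*, with the motif-rich mRNA described above, gave 1 and 4 reads in control cells and 0 and 7 reads after knockdown, and no direction could be read from these counts.

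**Figure D2:**
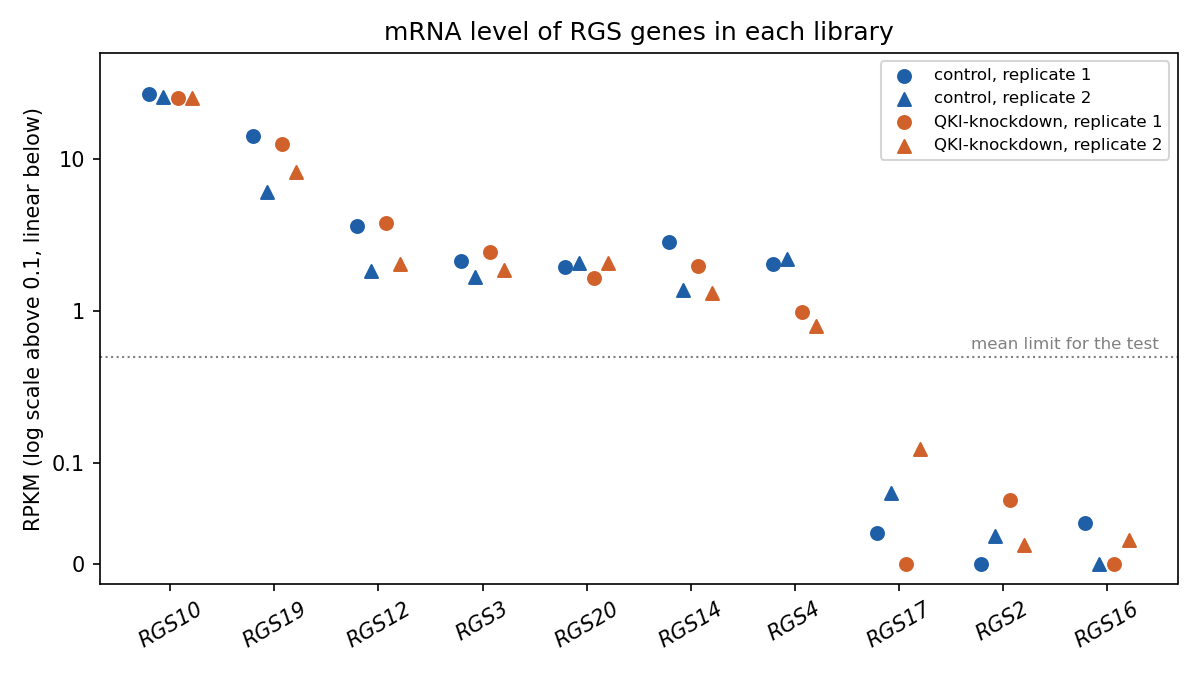
RPKM of the 10 RGS genes (x axis, ordered by mean) in each library (y axis, log scale above 0.1 and linear below), with control libraries in blue, QKI-knockdown libraries in orange, replicate 1 as circles and replicate 2 as triangles. The control points of *RGS4*, at 2.06 and 2.20 RPKM, lie above its knockdown points, at 0.986 and 0.799 RPKM.

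None of the 6 tested members beside *RGS4* was called higher or lower in any fit run on all 4 libraries. Without a term for the replicate number, limma called 0 of the 11829 genes at an adjusted p under 0.05, 0% of those tested, and QKI itself was not called. At unadjusted p-values below 0.05, 4 genes were higher and 9 lower, and limma's voom on recovered reads called 0 as well. When the replicate number entered the fit as a block, 0.364% of the tested genes were called lower and 0.49% higher by limma, but 0 of these 6 members (limma adjusted p = 0.999 for each, over all genes). Voom with the block called 68 genes lower and 69 higher, and again 0 of these 6. For 5 of the 6, the 95% interval of limma with the block reached no lower than a difference of -0.39: from -0.16 to 0.43 for *RGS3*, from -0.29 to 0.17 for *RGS10*, from -0.20 to 0.38 for *RGS12*, from -0.13 to 0.36 for *RGS19* and from -0.39 to 0.21 for *RGS20*. For *RGS14* it reached from -0.55 to 0.06, so a fall smaller than that of *RGS4* could have been missed. These intervals use the spread typical of genes of similar mRNA level, not the spread of a gene's own libraries. For *RGS19*, the differences within replicate 1 (-0.17) and replicate 2 (0.41) both lay outside its interval. The intervals with the block therefore do not bound the fall that could have been missed. Without the block the intervals were wider, and for *RGS12*, *RGS14* and *RGS19* they included a difference as large as that of *RGS4*, as in the interval from -1.22 to 1.46 for *RGS19*.

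Counted by direction, 3 of the 7 tested members were lower within both replicate numbers (*RGS4*, *RGS10* and *RGS14*), and 16.6% of all tested genes were. Higher within both were 2 members (*RGS3* and *RGS12*), and 31.7% of all tested genes were. Both knockdown libraries lay below both control libraries for 2 members, *RGS4* and *RGS10*, and for 2.89% of all tested genes. *RGS4* is one of the members in each of the lower counts because it was chosen for its fall. Without it, the median log2 difference of the 6 tested members was 0.01, close to the median of 0.03 over all tested genes. Within the replicate numbers this median differed in sign, at -0.14 in replicate 1 and 0.06 in replicate 2. Over all tested genes the medians were 0.02 and 0.05.

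**Figure D3:**
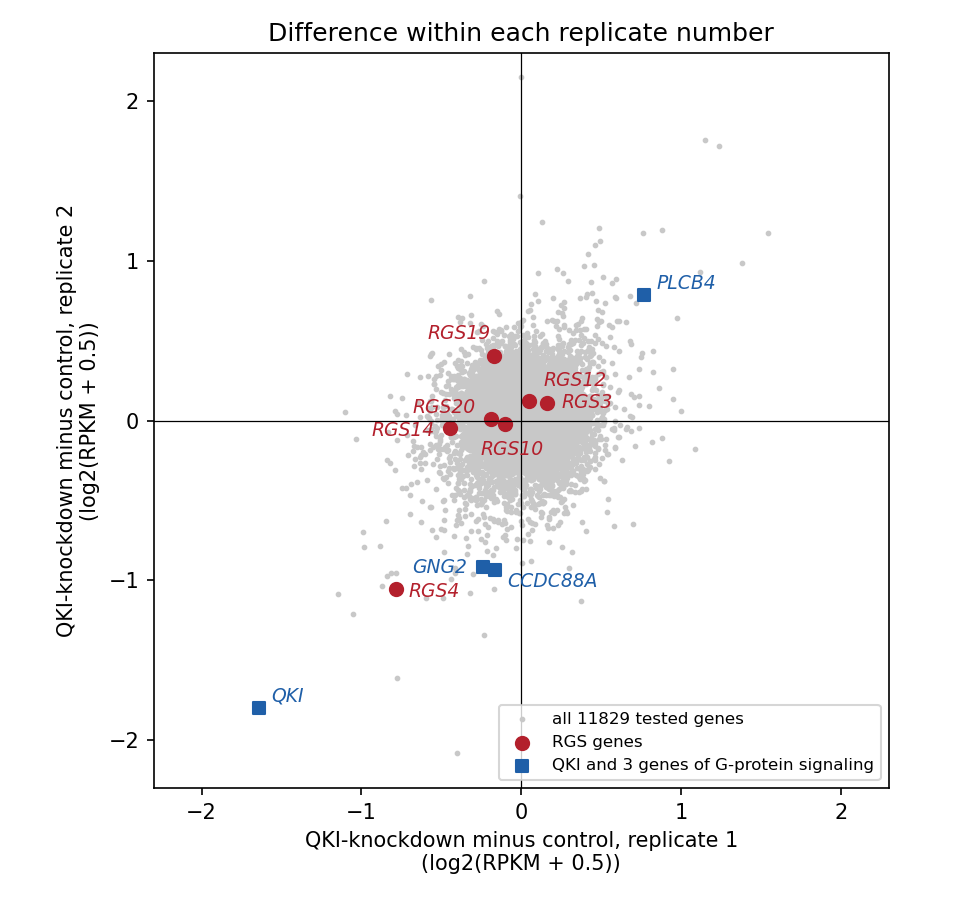
Difference between QKI-knockdown and control on the log2(RPKM + 0.5) scale within replicate 1 (x axis) and replicate 2 (y axis) for all 11829 tested genes (grey), the 7 tested RGS genes (red) and *QKI*, *GNG2*, *CCDC88A* and *PLCB4* (blue squares). *RGS4*, at -0.78 and -1.05, stands at the edge of the cloud, and the other 6 RGS genes lie between -0.44 and 0.41 on both axes.

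By RPKM, the members fell into 4 ranges that did not overlap between libraries. *RGS10*, between 25.2 and 27.0 RPKM, stood above *RGS19*, between 6.10 and 14.2 RPKM. *RGS12*, *RGS3*, *RGS20*, *RGS14* and *RGS4* followed, with means from 2.84 down to 1.51 RPKM and overlapping neighbours, and *RGS17*, *RGS2* and *RGS16* had means of at most 0.0559 RPKM. For the abundant and middle members, the replicate number moved the level of some genes more than the knockdown moved any of them but *RGS4*. From replicate 1 to replicate 2, *RGS19* differed by -1.16 in control cells and by -0.58 after knockdown, *RGS12* by -0.83 and -0.75, and *RGS14* by -0.85 and -0.45. *RGS3* differed by -0.28 and -0.33, and *RGS10*, *RGS20* and *RGS4* by values between -0.19 and 0.27.

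**Figure D4:**
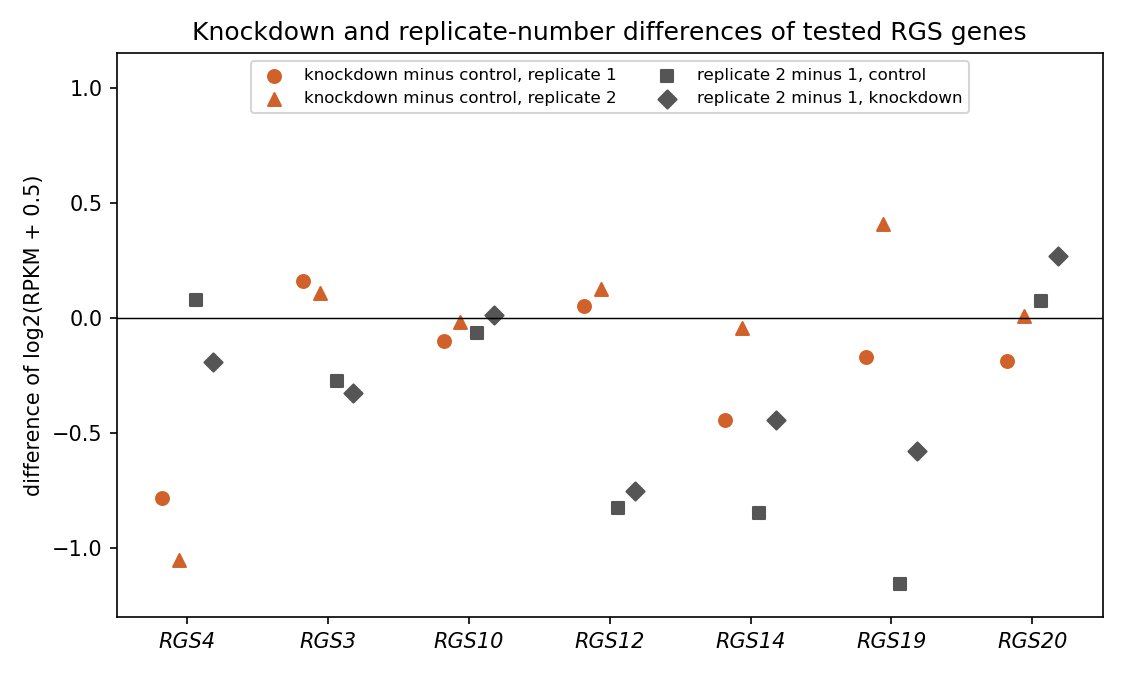
Differences of log2(RPKM + 0.5) (y axis) for the 7 tested RGS genes (x axis): QKI-knockdown minus control within replicate 1 and replicate 2 (orange circles and triangles), and replicate 2 minus replicate 1 within control and within QKI-knockdown cells (grey squares and diamonds). For *RGS4* the knockdown differences of -0.78 and -1.05 exceed the replicate differences of 0.08 and -0.19, whereas for *RGS3*, *RGS12*, *RGS14*, *RGS19* and *RGS20* the largest difference is one between replicate numbers.

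No other tested gene of the RGS family was called either, with 0.364% of all tested genes called lower and 0.49% higher by limma with the block. Of 11 further genes, 6 were not listed in any library (*RGS1*, *RGS6*, *RGS8*, *RGS13*, *RGS21* and *RGS22*), and *RGS7* and *RGS11* were tested. *RGS11* was at 0.707 and 0.465 RPKM in control cells and at 0.838 and 0.675 RPKM after knockdown, and *RGS7* at 0.648 and 0.936 RPKM and at 0.936 and 0.892 RPKM. Both act together with the G beta subunit encoded by *GNB5*, and neither was called with the block (limma adjusted p = 0.999 for each). *RGS5*, the neighbour of *RGS4* on chromosome 1 and a relative of similar size, was at 0.104 and 0.209 RPKM in the control libraries and at 0.0718 and 0.251 RPKM in the knockdown libraries, with opposite signs within the numbers. *RGS9* reached at most 0.280 RPKM, and *RGS18* had 1 read in a single library. Proteins with an RGS domain outside the family, among them axins, receptor kinases and sorting nexins, had 13 tested genes of 16. Of these, 0 were called, which is at the same background share, and the median difference was 0.04. The highest mean RPKM among them were those of *ARHGEF1*, *ARHGEF12*, *GRK6* and *ADRBK1*, with pooled differences between -0.09 and 0.08.

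Upstream, limma with the block called 0 of 22 tested receptors. With 0.364% of all tested genes called lower and 0.49% higher, this count is at the background share. The highest were *F2R*, a thrombin receptor, at 13.8 and 41.5 RPKM in control and 11.9 and 33.4 RPKM in knockdown libraries, and *BDKRB1*, a bradykinin receptor, at 14.3 and 8.84 RPKM and at 11.8 and 6.66 RPKM. Both were lower within both replicate numbers, by 0.20 and 0.31 for *F2R* and by 0.27 and 0.38 for *BDKRB1*, and did not pass the test with the block (limma adjusted p = 0.650 and 0.337). *ADORA2B*, an adenosine receptor, and *P2RY11*, a receptor for ATP, followed in level. The median difference over the 22 receptors was -0.03.

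Of the G-protein subunits, 0 of 11 tested G alpha genes and 0 of 12 tested G beta and G gamma genes were called by limma with or without the block, against 0.364% of all tested genes called lower and 0.49% higher with it. Among the G alpha genes, *GNAS*, *GNAI2*, *GNAI3* and *GNA11* had the highest mean levels, with 93.1 and 81.2 RPKM for *GNAS* after knockdown against 96.0 and 72.9 RPKM in control cells. The targets of RGS4 in the Gi class, *GNAI1*, *GNAI2* and *GNAI3*, had pooled differences of 0.10, -0.07 and 0.10, and *GNAQ* of the Gq class had one of 0.09. The median over the 11 genes was 0.09. Of the G beta and G gamma genes, *GNB1*, *GNB2*, *GNG12* and *GNG5* had the highest mean RPKM, and the median difference was 0.03.

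*GNG2*, which encodes a G gamma subunit, had the lowest pooled difference among the tested subunits, -0.58, and whether it was called depended on the fit. Its mRNA was at 0.388 and 1.48 RPKM in the control libraries and at 0.252 and 0.550 RPKM in the knockdown libraries, or 65.0% and 37.2% of control within the numbers. The level thus differed more between the control libraries than within either number. Limma with the block gave an adjusted p of 0.0538, limma with the block and median centring 0.0286, and voom with the block 0.00787. It rested on 30 and 198 reads against 20 and 74. *GNG4*, another G gamma gene, was higher within both numbers, by 0.49 and 0.40, and was not called (limma with the block, adjusted p = 0.149).

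Among other regulators of G proteins and arrestins, 1 of 8 tested genes was called lower by limma with the block and 0 higher, against 0.364% and 0.49% of all tested genes. Since earlier results of these data were known when the list was chosen, this count is only a description. *CCDC88A*, which encodes girdin, a protein that binds G alpha and actin and promotes G-protein activity without a receptor, was at 7.25 and 20.2 RPKM in control cells and at 6.40 and 10.3 RPKM after knockdown (limma with the block, adjusted p = 0.00290). Its difference was -0.17 within replicate 1 and -0.93 within replicate 2, and the groups overlapped. The p-value uses the spread typical of genes of similar mRNA level, so it does not take up the disagreement between these differences. *RIC8A*, *ARRB2*, *GPSM2* and *GPSM1* had the highest mean levels beside *CCDC88A*. *GPSM3*, whose protein binds inactive G alpha, was lower within both numbers, by 0.45 and 0.30, without a call (limma with the block, adjusted p = 0.309). The median over the list was -0.12.

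Downstream, limma with the block called 1 of 7 tested effectors higher, *PLCB4*, and 0 lower, against 0.49% and 0.364% of all tested genes. The list was chosen with earlier results of these data known, so this count is only a description. *PLCB4* encodes a phospholipase C that Gq activates, and its mRNA was at 5.32 and 6.97 RPKM in the control libraries and at 9.42 and 12.4 RPKM in the knockdown libraries. The difference was 0.77 and 0.79 within the replicate numbers (limma with the block, adjusted p = 1.11e-06), so that the groups did not overlap. *ADCY3*, *PLCB3*, *ADCY6* and *ADCY9*, those with the highest mean RPKM of the 7 tested adenylyl cyclase and phospholipase C beta genes, had differences between -0.08 and 0.23 and were not called. The 5 genes of the Arg/N-degron pathway that act on RGS4 protein, *ATE1*, *UBR1*, *UBR2*, *UBR4* and *ADO*, had differences between -0.02 and 0.14. Of these, 0 were called, which is at the background share of 0.364% lower and 0.49% higher with the block. The protein level of RGS4 was not measured in these data.

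**Figure D5:**
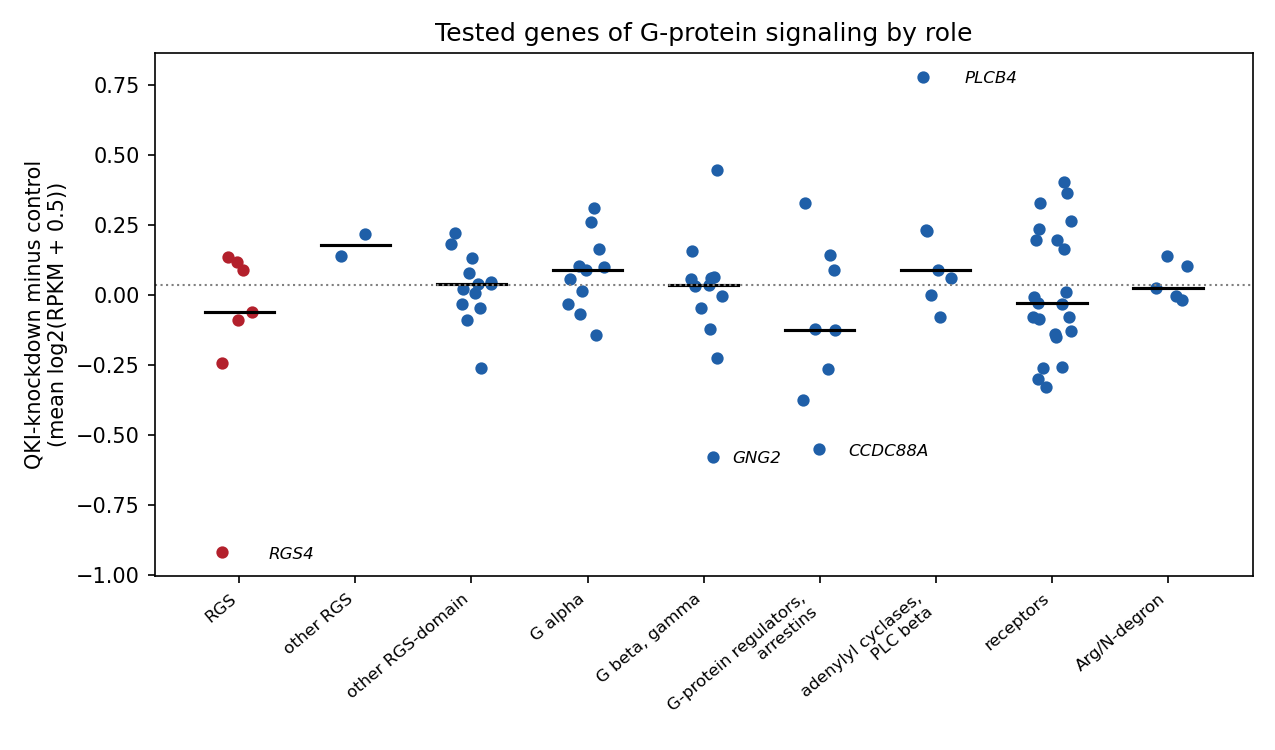
Pooled difference between QKI-knockdown and control (y axis, mean log2(RPKM + 0.5)) for the tested genes of each list of G-protein signaling (x axis); each point is a gene, black bars are medians of a list, and the dotted line is the median of 0.03 over all tested genes. *RGS4*, *GNG2*, *CCDC88A* and *PLCB4* are the genes more than 0.5 from 0.

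The 5 tested genes whose 4 library values were most like those of *RGS4*, by Euclidean distance of log2(RPKM + 0.5) after each gene was centred on its mean, were *PCDH7*, *CRISPLD2*, *GABRA3*, *CTSC* and *CYFIP2*, at distances from 0.083 to 0.344. *PCDH7*, a protocadherin gene, was at 1.02 and 1.07 RPKM in the control libraries and at 0.365 and 0.312 RPKM after knockdown. *CRISPLD2*, which encodes a secreted protein, was at 5.26 and 4.58 RPKM and at 2.84 and 2.12 RPKM. The differences of the 5 genes within the numbers were between -0.62 and -1.21, and all 5 were lower in both knockdown libraries than in both control libraries, as the choice by likeness implies. *RGS10*, the RGS gene nearest to *RGS4* by this measure, came only at place 790, at a distance of 0.877, and *RGS19* at place 9616.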

How the data were processed

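The authors deposited RPKM values for each library, which they had computed themselves. Per the methods of the study, single-end Illumina GAII reads of total RNA (TruSeq RNA kit, per the labels) were aligned with Bowtie to hg19 and to junctions made from Ensembl annotations. The study sequenced with 2 read lengths. Genes absent from a table were given 0. The members and gene lists were chosen with earlier results of these data known.

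Whole reads, gene lengths and library totals were recovered from the spacing of the RPKM values, and 100% of values gave whole reads (relative tolerance 1e-09). The tolerance is relative to the read count, so very large counts could pass this check by themselves. Each length was the smallest that made all reads of a gene whole, and a multiple of it would do so as well. Totals were 20052951 and 34706058 reads for control and 20571555 and 34862008 for QKI-knockdown libraries 1 and 2. Summed over genes, reads came to between 1.35 and 1.53 times these totals, and the median length was 1.25 times that of the annotated exons, so a read can count more than once, within a gene with several transcripts or in overlapping genes. No counting intervals were therefore computed, and the 3-read floors cover counting error only. For *RGS4* the length was 11738 nt, against 4729 nt of annotated exons. No annotated gene shares exon bases with a member. Whether counting used strand is not given.

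Log2(RPKM + 0.5) was tested with limma 3.58.1 (mean-variance trend, R 4.3.3), two-sided, where the mean over libraries was 0.5 RPKM or more, with Benjamini-Hochberg adjustment over all 11829 genes and 0.05 as the threshold. A second fit added a block for the replicate number. Libraries with the same number shifted in the same direction (correlation 0.953 across genes, which are not independent); the labels do not say what a number marks, so it was treated as a batch. With the block, the standard error of limma on log2(RPKM + 0.5) follows the mRNA level, and the spread of a gene's own libraries has practically no weight in it. The fits were tested on simulated data. Other alternatives were pseudocounts of 0.1 and 1 RPKM, no limit and a limit of 1 RPKM, median centring, leaving out each library, and voom on recovered reads. The block together with median centring was added after the data were seen.

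Genes named are the 10 members, other RGS genes, QKI, the 4 most abundant and any called members of each list, and the 5 genes most like *RGS4*. *GNG2*, *GNG4*, *GPSM3*, *GNAI1*, *GNAQ* and single markers were named after their values were seen. Python 3.11.15, numpy 2.4.6, pandas 2.3.3 and matplotlib 3.10.9 were used.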

Additional observations from a re-analysis of the deposited data

How the results depend on the processing

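*RGS4*, which was chosen for its fall in these same libraries, was lower under every alternative run. Its pooled difference of -0.92 was -1.17 and -0.73 with pseudocounts of 0.1 and 1 RPKM, -1.27 with voom on the recovered reads and -1.28 with voom and the replicate block, -0.78 and -1.05 within replicate 1 and replicate 2, and between -1.02 and -0.82 when 1 library was left out. The count of called genes depended on the replicate block: 58 higher and 43 lower with it, 69 and 68 with voom and the block, and 48 and 66 with the block and median centring, against 0 and 0 without it. Leaving out 1 library without the block gave between 0 and 2 higher and between 0 and 2 lower genes. Leaving out a library also left the replicate numbers unbalanced between the groups, and members that were not called changed direction: the range was -0.030 to 0.30 for *RGS3*, -0.33 to 0.50 for *RGS12*, -0.67 to 0.18 for *RGS14*, -0.46 to 0.69 for *RGS19*, -0.22 to 0.043 for *RGS20*, and -0.33 to 0.18 for the median of the tested members. *RGS19* also turned within replicate 1 (-0.17) and *RGS20* within replicate 2 (0.0073).

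The median of *RGS7* and *RGS11*, 0.18, was 0.27 with a pseudocount of 0.1, 0.012 over the listed genes without a limit on RPKM, 0.31 with voom and 0.29 with voom and the block. The median of the RGS-domain genes outside the family, 0.04, was 0.0032 with median centring, alone or with the block, -0.0058 within replicate 1, and between -0.21 and 0.15 without 1 library. Without 1 library, the medians of other lists also changed sign or size: -0.017 to 0.23 for G alpha, -0.088 to 0.073 for G beta and G gamma, -0.11 to 0.032 for receptors, -0.29 to -0.12 for other regulators, -0.16 to 0.35 for effectors and -0.16 to 0.28 for the Arg/N-degron genes. The replicate block changed no call of the 6 tested members beside *RGS4*, whose values are given without a test. *RGS2*, *RGS16* and *RGS17* had at most 7 reads in a library, which limits what can be said of them.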
